A study of Mus musculus with 4 samples.

Results

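Transcript levels of 33 genes of mitosis and the G2/M phases were compared between mouse embryonic stem cells (ESCs) with and without induced deletion of Arid1a. Arid1a encodes a DNA-binding subunit of the BAF chromatin remodelling complex. The genes were listed by their known function, with earlier results of these data already known. They were matched by symbol, and all 33 were found among the 14382 genes of the deposited table. All cells had the genotype Arid1af/f:CreERT2, that is, floxed Arid1a alleles and a Cre recombinase that enters the nucleus once 4-hydroxytamoxifen (4-OHT) is bound. The ethanol group (2 libraries) received the solvent and the 4-OHT group (2 libraries) received 1 µM 4-OHT, with exposure lasting 24 hours. The RNA dates from 72 hours after treatment. CreERT2 was thus carried by both groups, while only 1 group was given 4-OHT, so an effect of the drug or of active Cre itself cannot be told apart from the loss of Arid1a. No source used here gives the promoter that drives CreERT2 or the number of clones behind the line. The labels do not describe the libraries of a group as separate cultures. A p-value therefore reflects only how far these libraries differ, which may be technical.

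Mitosis begins when CDK1, bound to cyclin A2 and then to B-type cyclins, is switched on by CDC25 phosphatases. Aurora and Polo-like kinases, kinesin motors and microtubule-binding proteins then build the spindle, and the spindle checkpoint holds the cell until every chromosome is attached. CDC20 and the anaphase-promoting complex next destroy cyclin B and securin, and a contractile ring splits the cell. The genes for these proteins are transcribed together late in the cycle, many of them under the control of the MuvB complex with B-MYB and FOXM1. Mouse ESCs cycle fast with short gap phases, and carry these transcripts at high levels. In RNA from a whole culture, fewer cells in G2 or mitosis and less of a transcript per cell cannot be told apart.

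A pair of promoter elements is a textbook feature of this gene group, and the promoters are shown first because the 33 genes share a transcriptional programme that the selection did not read from sequence. The first is the cell cycle genes homology region (CHR), searched as TTTGAA or TTCGAA, and the other is the CCAAT box, bound by NF-Y, both searched on either strand. RefSeq promoter windows of the GRCm38.p6 (mm10) build, 250 bases before to 50 bases after each start, were matched for 28 of the 33 genes, in 31 windows. Aurkb, Tpx2, Cdc25c, Ccna2 and Kif20a had no entry. A CHR match lay in 26 of the 31 windows (83.9%), against 19.2% of all 32851 windows of 300 bases. A CCAAT match lay in 27 windows (87.1%), against 37.4% of all windows, and 25 (80.6%) held both, against 7.53% of all. Counted per window, there were 36 CHR and 64 CCAAT matches, of which 1 pair overlapped. Bub3, Ect2 and Prc1 had more than 1 window, and as these overlap, their sites were counted more than once. By gene, 23 of the 28 held a CHR match. A match is a string of letters and does not show that a factor was bound in these cells.

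The 120 bases before the start of Ube2c (chr2:164769809-164769928, plus strand) and of Kif23 (chr9:61946800-61946919, minus strand) follow, because these are the genes with a window that passed the test described below. They are written 5′ to 3′ on the strand of the gene, with CHR and CCAAT matches in capitals (ATTGG is CCAAT and TTCAAA is TTTGAA on the other strand).
Ube2c: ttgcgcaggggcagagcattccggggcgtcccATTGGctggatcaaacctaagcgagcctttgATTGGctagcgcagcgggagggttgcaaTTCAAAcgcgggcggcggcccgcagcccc
Kif23: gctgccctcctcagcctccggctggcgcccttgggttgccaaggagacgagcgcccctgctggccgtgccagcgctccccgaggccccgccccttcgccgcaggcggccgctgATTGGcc

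The CHR match of Ube2c lay 29 to 24 bases before the start, downstream of 2 CCAAT boxes in the stretch shown and 6 in the whole window. In Kif23 the CCAAT box lay just before the start and the CHR match at bases 3 to 8 after it. Sites of 30 bases around the CHR match (capitals) are set side by side. They start with the genes with the lowest 4-OHT levels relative to ethanol that had a match, of which Plk1, a kinase gene, is the last shown. Cenpf and Prc1 follow, which were at or above the ethanol level, and no gene from the middle of the order is shown.
Kif23 (chr9:61946780-61946809): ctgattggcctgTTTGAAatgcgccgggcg
Kif4 (chrX:100626072-100626101): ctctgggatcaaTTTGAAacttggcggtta
Ube2c (chr2:164769888-164769917): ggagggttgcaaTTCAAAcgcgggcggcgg
Hmmr (chr11:40733412-40733441): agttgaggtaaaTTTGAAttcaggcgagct
Plk1 (chr7:122159453-122159482): cccagcgccgcgTTTGAAttcggggaggag
Cenpf (chr1:189688067-189688096): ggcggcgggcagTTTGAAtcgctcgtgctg
Prc1 (chr7:80294434-80294463): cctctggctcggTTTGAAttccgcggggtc
As each was chosen for having a match, its presence in all 7 says nothing of direction.

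Levels are given as CPM, the reads of a gene scaled to the size of its library. The deposited table holds each group's mean, and the reads of its 2 libraries, called A and B here, were recovered from it. Recovered totals ranged from 6050742 to 6849890 reads per library over 14376 tested genes, and the 33 genes had between 208 and 7449 reads per library, so that counting alone gives an error of at most 6.93% per library for Cdc25c, the shallowest. Arid1a itself stood at 517 and 502 CPM in ethanol and at 241 and 213 CPM with 4-OHT (limma adjusted p = 7.27e-06), which covers reads of the whole gene. All 12 ESC markers were measured, with means from 46.3 CPM for Fgf4 to 1442 CPM for Pou5f1 in ethanol. In limma 2 of them fell, Esrrb by 0.27 and Sox2 by 0.22 on the log2 scale, 3 rose (Tdgf1 by 0.30, Nanog by 0.36 and Fgf4 by 0.71), and 7 did not pass, Pou5f1 among them. That is 16.7% lower and 25% higher, against 5.86% and 5.44% of genes with a mean of at least 30 CPM. The cultures grew on irradiated fibroblast feeders, of whose 27 markers 22 were in the table. In limma 3 were lower (Col5a2, Fstl1 and Tagln), 3 were higher (Sparc, Thy1 and Col1a2) and 16 did not pass. That is 13.6% in each direction, against 4.22% lower and 5.24% higher among all tested genes. Their summed level was 2177 to 2194 CPM in ethanol and 1932 to 2035 CPM with 4-OHT, and Postn, Lum, Dcn, Twist2 and Prrx1 had no row. The part of the feeders and of the shift in ESC markers in the results below was not tested.

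Small differences pointing down were seen across much of the gene group, and 3 of the 33 genes passed the test. As the group was chosen with earlier results of these data known, its shares describe it and are not independent support for a shared fall. Aurkb, Kif23 and Ube2c fell by 0.27, 0.26 and 0.20 on the log2 scale, or from 126 to 104, 169 to 141 and 234 to 204 CPM (limma on log2(CPM + 1), adjusted p under 0.05 over all 14376 genes), 0 rose and 30 did not pass. The 3 genes are 9.09% of the group, against 4.22% of all tested genes that were lower, 5.24% that were higher, and 5.86% lower among the 6692 genes with a mean of at least 30 CPM, the range in which all 33 lie. On an unadjusted p under 0.05, 9 genes (27.3%) were lower and 1, Cenpf, was higher, against 13.8% lower and 12% higher among genes with at least 30 CPM. The fold change was below 0 for 25 of the 33 genes (75.8%), against 54.0% of genes with at least 30 CPM, and the median log2 fold change was -0.05 against -0.01. With 1 library left out in turn, 23 to 29 genes were below 0 and the median ran from -0.04 to -0.08, the last of these (with 29 genes) without ethanol A. In 19 genes (57.6%) both 4-OHT libraries lay below both ethanol libraries, against 28.6% of genes at that level, and in 1 gene (3.03%) both lay above, against 24.5%. The summed level of the 33 genes was 7916 and 8111 CPM in ethanol and 7865 and 7623 CPM with 4-OHT. These libraries did not overlap in the sum, although ethanol A and 4-OHT A lay closer to each other than the libraries of either group.

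**Figure D1:**
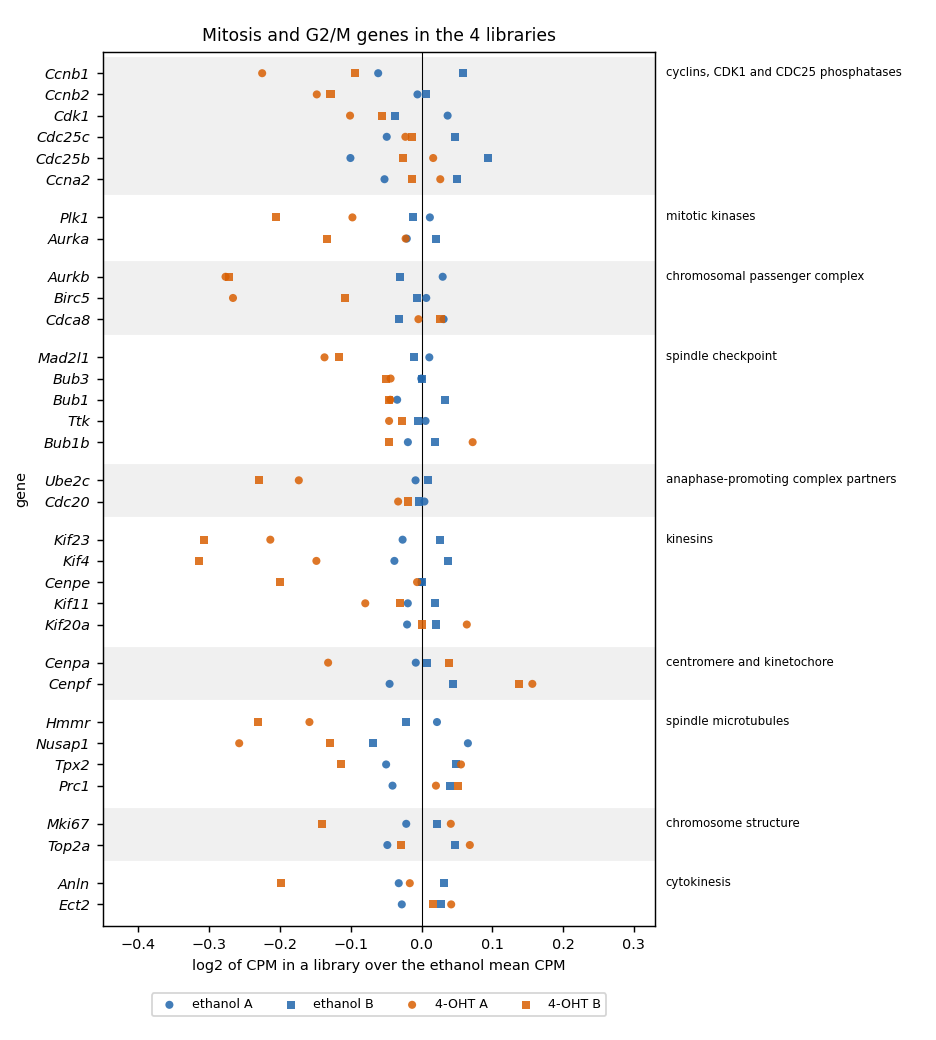
CPM of each of the 33 genes in the 4 libraries, as log2 of its ratio to the ethanol mean (horizontal axis, 0 is the ethanol mean), with genes on the vertical axis grouped by role; blue is ethanol, orange is 4-OHT, circles are library A and squares library B. In 19 genes both orange points lie to the left of both blue points, and in Cenpf alone both lie to the right.

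The call depended on the test. The quasi-likelihood test of edgeR on the recovered reads called 6 genes lower (18.2% of the group, against 7.63% of 12961 genes kept), namely these 3 with Kif4, Hmmr and Nusap1, while the Wald test of DESeq2 called 0 (6 lower at an unadjusted p under 0.05). Leaving out ethanol A, 4-OHT A or 4-OHT B, limma called 0 of the 33, and without ethanol B it called Aurkb alone; without either 4-OHT library it called 0 of all genes.

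Differences of similar size were present inside the ethanol group. Ethanol A was below ethanol B in 23 of the 33 genes, with a median log2 difference of -0.04, whereas over genes with at least 30 CPM the median was 0.0013 and 49.7% were lower. 4-OHT B was below 4-OHT A in 19 genes, with a median of -0.02, equal to that of the genes with at least 30 CPM, of which 55.9% were lower. Between groups, 4-OHT A was below ethanol A in 21 genes and below ethanol B in 25, and 4-OHT B was below them in 24 and 29. In the same order, 51.6%, 51%, 54.5% and 53.6% of genes with at least 30 CPM were lower, with medians from -0.0037 to -0.017. The median log2 difference of the 33 genes ran from -0.04 for 4-OHT A against ethanol A to -0.08 for 4-OHT B against ethanol B. The gap between the ethanol libraries was thus as large as the smallest gap between libraries of different groups.

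**Figure D2:**
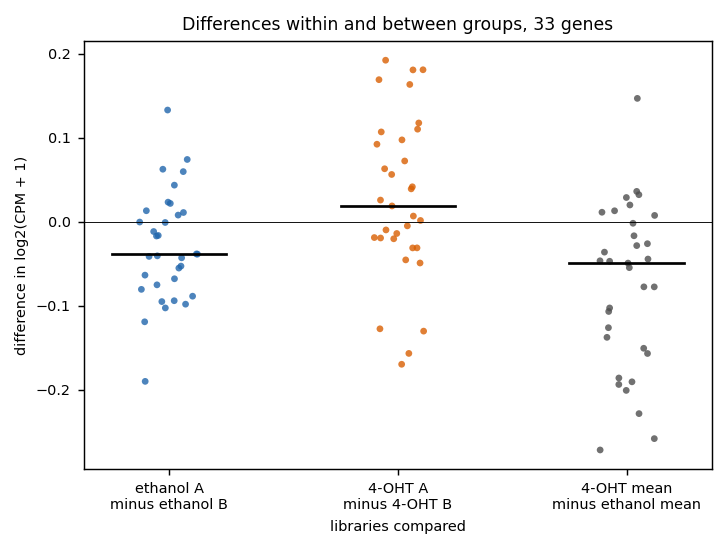
Difference in log2(CPM + 1) for the 33 genes (points) between the libraries of a group and between the group means, with black bars at the medians; horizontal positions within a column are spread for visibility. The median was -0.04 for ethanol A minus ethanol B, 0.02 for 4-OHT A minus 4-OHT B and -0.05 between the group means, and the lowest points, near -0.27, are in the last column.

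The genes that start mitosis did not pass. Ccnb1, the main B-type cyclin of mitotic entry, was at 117 and 127 CPM in ethanol and at 104 and 114 CPM with 4-OHT, so that the groups lay apart by less than the spread in each. Ccnb2, the second B-type cyclin gene, was at 196 and 198 CPM and at 177 and 180 CPM, a gap wider than its spread (log2 fold change -0.14, SE 0.055, limma adjusted p = 0.164). Cdk1, the kinase both cyclins activate, was at 280 and 266 CPM in ethanol and 254 and 263 CPM with 4-OHT. Ccna2, whose cyclin acts from S phase to early mitosis, was at 372 ± 18.7 and 374 ± 7.21 CPM (SD, n = 2) and its groups overlapped. Exons of Exosc9 on the other strand cover 10.4% of the exon bases of Ccna2, so reads of both could be mixed. The CDC25 phosphatase genes, which remove the brake on CDK1, had the fewest reads of the 33. Cdc25b averaged 43.7 ± 4.16 CPM (ethanol) and 43.6 ± 0.912 CPM (4-OHT), and Cdc25c at 33.4 ± 1.58 and 32.9 ± 0.160 CPM. Their 95% intervals of -0.21 to 0.21 and -0.23 to 0.20 (log2) leave room for changes as large as most of those in the rest of the group.

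Plk1, whose kinase drives centrosome maturation and mitotic entry, was at 186 and 183 CPM in ethanol and 172 and 160 CPM with 4-OHT. Both 4-OHT values were below both ethanol values, with a log2 fold change of -0.15 (SE 0.061, limma adjusted p = 0.165). Gm44985 on the other strand covers 7.09% of the exon bases of Plk1. Aurka, the Aurora kinase gene of centrosomes and spindle poles, was at 193 and 198 CPM and at 193 and 178 CPM. Its 4-OHT A library was level with ethanol A, so the difference between the means rests on 4-OHT B.

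The chromosomal passenger complex, which corrects faulty attachments and later marks the cleavage site, was unequal among its genes. Aurkb, its kinase subunit (chromosome 11, 69045624 to 69051664), was at 128 and 123 CPM in ethanol and at 104 and 104 CPM with 4-OHT. It fell by 0.27 on the log2 scale (SE 0.062, 95% interval -0.41 to -0.13, limma adjusted p = 0.0220), the lowest change of the 33. Birc5, which encodes survivin, stood at 149 and 148 CPM and at 124 and 138 CPM, lower in both 4-OHT libraries, with 4-OHT B closer to ethanol than to 4-OHT A (limma adjusted p = 0.124). Cdca8, which encodes borealin, was at 202 ± 6.23 and 203 ± 3.11 CPM with overlapping groups. Incenp, the scaffold gene of the complex, stood at 289 and 295 CPM in ethanol and 311 and 288 CPM with 4-OHT, and limma did not call it either. The difference between Aurkb and its partners was not tested.

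In the spindle checkpoint, 0 of 5 genes passed in limma (0 also at an unadjusted p under 0.05 and in edgeR). Mad2l1, whose protein inhibits CDC20, was at 166 and 163 CPM in ethanol and at 150 and 152 CPM with 4-OHT, and the gap between the groups was wider than the spread in either (log2 fold change -0.13, SE 0.057, limma adjusted p = 0.213). Bub3, Bub1 and Ttk, which encode a checkpoint adaptor and the kinases BUB1 and MPS1, also had both 4-OHT values below both ethanol values, by 2.49% to 3.22% between the means. Bub3 was the most even, at 210 and 210 CPM against 204 and 203 CPM. Bub1b, which encodes BUBR1, was at 312 and 321 CPM in ethanol and 333 and 306 CPM with 4-OHT, the 4-OHT values lying outside the ethanol ones on either side.

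Ube2c encodes the ubiquitin-conjugating enzyme that starts chains on substrates of the anaphase-promoting complex (chromosome 2, 164769929 to 164772902). Its level was 233 and 236 CPM in ethanol and 208 and 200 CPM with 4-OHT. It fell by 0.20 on the log2 scale (SE 0.056), with a limma adjusted p of 0.0499, just inside the threshold, which became 0.0612 with a pseudocount of 0.1 in place of 1. Cdc20, the activator of that complex, was at 415 and 412 CPM and at 404 and 408 CPM, 1.79% lower between the means and not past the test.

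**Figure D3:**
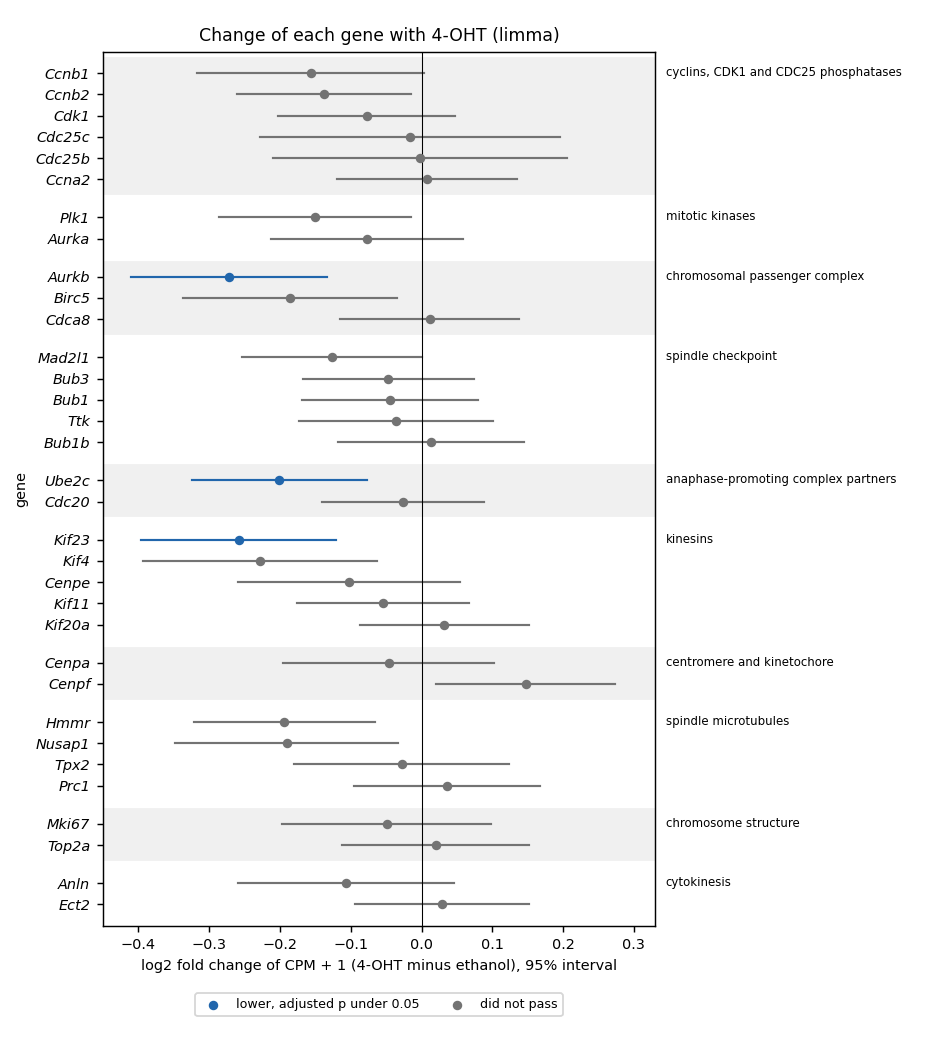
Change in log2(CPM + 1) with 4-OHT relative to ethanol (points), drawn with the 95% interval from limma (bar) for the 33 genes by role; blue genes were lower at an adjusted p under 0.05 and grey genes did not pass. The points run from -0.27 for Aurkb to 0.15 for Cenpf, and the intervals of Aurkb, Kif23 and Ube2c end below 0 along with those of 6 grey genes.

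The kinesins included the second of the genes that passed. Kif23, a motor of the centralspindlin complex that bundles midzone microtubules (chromosome 9, 61917277 to 61946810), was at 166 and 172 CPM in ethanol and at 146 and 137 CPM with 4-OHT. It fell by 0.26 on the log2 scale (SE 0.062, 95% interval -0.40 to -0.12, limma adjusted p = 0.0274). Racgap1, which encodes the other subunit of centralspindlin, was at 175 and 170 CPM and at 169 and 153 CPM and did not pass. Kif4, a chromosome-bound motor of the midzone, was at 105 and 111 CPM in ethanol and 97.5 and 86.9 CPM with 4-OHT (log2 fold change -0.23, SE 0.074, limma adjusted p = 0.0890, edgeR adjusted p = 0.0330). Exons of Pdzd11 on the other strand cover 15.1% of its exon bases, and as the strand setting of the counting is not given, reads of both genes could be mixed. Cenpe, a kinetochore motor that carries chromosomes to the spindle equator, had ethanol values of 173 and 173 CPM and 4-OHT values of 173 and 151 CPM, so that 4-OHT B alone stood apart. Kif11, the motor that pushes spindle poles apart, was at 283 ± 5.36 and 273 ± 6.58 CPM. Kif20a, a motor needed for cytokinesis, was at 538 ± 10.7 and 550 ± 17.1 CPM with overlapping groups, and Cdc23 on the other strand covers 31.8% of its exon bases.

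Among the genes of spindle microtubules, Hmmr and Nusap1 lay lower with 4-OHT and Tpx2 and Prc1 did not separate. Hmmr, which encodes a spindle assembly factor, was at 235 and 228 CPM in ethanol and 208 and 198 CPM with 4-OHT (log2 fold change -0.19, SE 0.057, limma adjusted p = 0.0639, edgeR adjusted p = 0.0269). Nusap1, a microtubule bundling protein gene, was at 166 and 151 CPM and at 132 and 145 CPM (edgeR adjusted p = 0.0476, limma adjusted p = 0.131). Its groups did not overlap, but the libraries of each group lay further apart than ethanol B and 4-OHT B did. Tpx2, the activator of Aurora A, was at 317 ± 15.3 and 312 ± 25.9 CPM, and Prc1, the crosslinker of the midzone, at 172 ± 6.83 and 177 ± 2.71 CPM. The groups of both genes overlapped, and 21.8% of the exon bases of Prc1 are shared with Rccd1 on the other strand.

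The centromere and kinetochore genes held the highest fold change of the 33. Cenpf, a kinetochore and nuclear matrix protein gene that peaks in G2, was at 229 and 244 CPM in ethanol and at 264 and 260 CPM with 4-OHT. It was the single gene of the 33 with both 4-OHT values above both ethanol values, 10.7% higher between the means, and it did not pass (log2 fold change 0.15, SE 0.057, limma adjusted p = 0.148, edgeR adjusted p = 0.106). Cenpa, the histone H3 variant of centromeres, was at 191 and 193 CPM in ethanol and at 175 and 197 CPM with 4-OHT, so that the 4-OHT values enclosed the ethanol ones. Top2a, the topoisomerase that disentangles sister chromatids, was the gene with the most reads, at 1010 ± 47.0 and 1024 ± 49.0 CPM. Mki67, the Ki-67 proliferation marker of the chromosome surface, was at 361 and 372 CPM and at 377 and 332 CPM. Neither of these 2 separated the groups. The cytokinesis genes were as mixed. Anln, a scaffold of the contractile ring, was at 238 and 248 CPM in ethanol and at 240 and 212 CPM with 4-OHT. Ect2, the exchange factor that activates RhoA at the cleavage site, was at 244 ± 6.61 and 249 ± 3.17 CPM. Both genes had overlapping groups.

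Per kilobase of annotated exon (Gencode M21 basic set, all isoforms joined), the mean level in ethanol ranged from 13.9 CPM for Cdc25b and 17.2 CPM for Cdc25c to 193 CPM for Top2a and 231 CPM for Cdc20. The genes that passed were in the middle of this order, with Ube2c at 90.1, Aurkb at 64.3 and Kif23 at 49.8 CPM per kilobase in ethanol, and at 78.4, 53.2 and 41.6 with 4-OHT. Within pairs of related genes the per-length ethanol levels were 100.8 for Aurka and 64.3 for Aurkb, 48.9 for Ccnb1 and 128 for Ccnb2, and 65.8 for Bub1 and 86.3 for Bub1b. Unused isoforms add length and overlapping genes may add reads, so these levels are approximate.

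A wider list of 108 other genes of mitosis, all of them in the table, was read in the same fit. In limma 4 fell, 2 rose and 102 did not pass, and 74 of 108 fold changes (68.5%) were below 0, with a median of -0.07. In edgeR 7 (6.48%) were lower and 3 (2.78%) higher, against 7.63% and 8.12% of the genes it kept. Both 4-OHT libraries lay below both ethanol libraries in 41 of these genes (38.0%) and above them in 10 (9.26%), against 25.7% and 26.4% of all genes. In limma 3.70% of the list was lower, against 4.22% of all genes and 5.86% of genes with at least 30 CPM. The share that was higher was 1.85%, against 5.24% and 5.44%. Of genes with at least 30 CPM, 28.6% had both 4-OHT libraries below both ethanol libraries and 24.5% had both above. In that set 54.0% had a fold change below 0. The means of the list run from 7.41 to 405 CPM, so neither set matches it in level.

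The 4 genes that fell act on the spindle, the centromere and the final cut. Cep55, which brings the abscission machinery to the midbody, fell from 75.5 and 69.3 CPM to 55.0 and 55.3 CPM (log2 fold change -0.38, SE 0.077, limma adjusted p = 0.0112). Ckap2, a spindle microtubule protein gene, fell from 189 and 186 CPM to 154 and 154 CPM (limma adjusted p = 0.0114). Ska3, a subunit of a kinetochore complex that grips microtubule ends, fell from 71.3 and 73.0 CPM to 59.3 and 56.3 CPM, and Sgo2a, a shugoshin that protects centromeric cohesin, from 133 and 142 CPM to 117 and 115 CPM. The rises were in centromere genes. Cenpm, a subunit of the constitutive centromere network (chromosome 15, 82233762 to 82244773), rose from 42.2 and 43.8 CPM to 86.8 and 89.2 CPM, a log2 fold change of 1.02 (SE 0.074, limma adjusted p = 3.72e-05). This was larger in size than any change among the 33 genes, and of opposite sign to most of them. Pmf1, a subunit of the MIS12 kinetochore complex, rose from 75.8 and 72.9 CPM to 89.3 and 91.1 CPM (limma adjusted p = 0.0305).

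The regulators of mitotic transcription did not pass in limma (0 of 11, with 2 lower at an unadjusted p under 0.05). Mybl2, which encodes B-MYB, was at 406 and 396 CPM in ethanol and at 369 and 331 CPM with 4-OHT (limma adjusted p = 0.0835), and edgeR called it lower (edgeR adjusted p = 0.0180). Foxm1 was at 150 and 133 CPM and at 134 and 124 CPM, so that 4-OHT A lay level with ethanol B. The MuvB subunit genes Lin9 and Lin54 had ethanol means of 31.3 and 36.1 CPM and 4-OHT means of 35.1 and 36.7 CPM. Of the 11 genes, 5 had a fold change below 0, and the median was 0.01. Of other named genes, the kinesin gene Kif2c had means of 164 (ethanol) and 157 CPM (4-OHT) and the kinetochore gene Ndc80 of 60.0 and 65.0 CPM, and neither passed. The 8 further kinesins all had a fold change below 0, with a median of -0.13, and 0 passed in limma (4 lower at an unadjusted p under 0.05, Kif15 and Kif18a called lower in edgeR). Among the 15 genes of the anaphase-promoting complex and its partners the median was 0.01, 7 were below 0, and 0 passed in limma or edgeR (2 lower at an unadjusted p under 0.05). Beside these counts, 50.4% of all tested genes were below 0 and 11.4% were lower at an unadjusted p under 0.05 in limma. Among genes with at least 30 CPM, the range of all 8 further kinesins, these shares were 54.0% and 13.8%. In edgeR 7.63% of the genes it kept were lower. These groups were not tested against all genes.

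DNA replication genes, which peak earlier in the cycle, gave a similar median. Of 45, 30 (66.7%) had a fold change below 0, against 54.0% of genes with at least 30 CPM, the range of nearly all of them. The median was -0.05, against -0.01. In limma 0 were called, with 3 (6.67%) lower and 2 (4.44%) higher at an unadjusted p under 0.05, against 13.8% and 12% at that level. In edgeR 2 (4.44%) were lower and 1 (2.22%) higher, against 7.63% and 8.12% of the genes it kept. Both 4-OHT libraries lay below both ethanol libraries in 15 of these genes (33.3%) and above them in 8 (17.8%). The shares were 28.6% and 24.5% of genes with at least 30 CPM, and 57.6% and 3.03% of the 33 genes of mitosis and G2/M. A difference between the lists was not tested, so the values do not show that the shift belongs to mitosis rather than to the cycle as a whole.

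**Figure D4:**
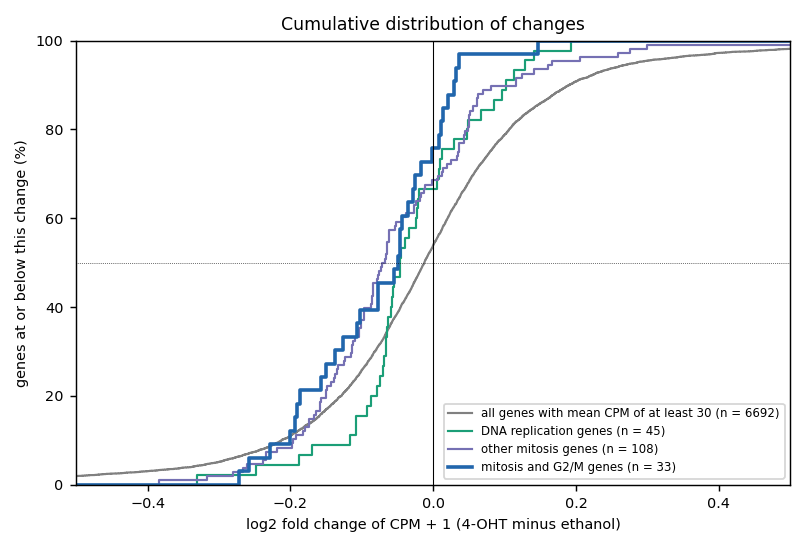
Cumulative share of genes (vertical axis, %) at or below a given log2 fold change of CPM + 1 (horizontal axis, 4-OHT minus ethanol) for the 33 genes, 108 other mitosis genes, 45 DNA replication genes and the 6692 genes with a mean of at least 30 CPM; changes beyond the axis are not drawn. At 0 the line of the 33 genes stands at 75.8% and that of all these genes at 54.0%, and the median of the 33 genes lies at -0.05.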

How the data were processed

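PolyA RNA was sequenced in 2 ethanol and 2 4-OHT samples. Per the labels' protocols, 2 Illumina TruSeq kits were in use, 1 of them stranded. Which sample had which is not said, so a kit difference cannot be told apart from the treatment. FastQC, Trimmomatic, HISAT2 and edgeR were used on mm10, per the submitters' processing notes. The read counter was not given in the sources used here, nor was its strand setting. The authors deposited each group's mean CPM per gene. With 1 read worth a fixed CPM in each library, a mean can be split into the reads of its 2 libraries. With these steps found from low values, 100% of 14382 values per group came out whole to the printed digits, with 1 possible pair for 99.7% (ethanol) and 99.95% (4-OHT), and 6 genes of at least 2859 CPM in ethanol were left out. A read was worth 0.142 to 0.159 CPM. The log2 fold change and adjusted p-value columns that the authors deposited were not used. In text order of the gene number that p never fell in 14381 steps, and the deposited fold changes had a Spearman rho of 0.0169 with the ratio of the CPM columns.

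Per-library CPM was tested with limma 3.58.1 (trend, R 4.3.3) on log2(CPM + 1), two-sided, Benjamini-Hochberg over 14376 genes, threshold 0.05, with fold changes that understate changes of low genes. Alternatives were edgeR 4.0.16 and DESeq2 1.42.0 on the recovered reads, size factors of DESeq2, a pseudocount of 0.1, a minimum mean of 1 CPM, and leaving out each library. The fits and the recovery were also run on simulated counts. Genes varied independently there, unlike genes of a shared programme, so those runs do not bear on the shared differences above. The named genes were all 33 members, the called genes of the wider list, and 8 of its genes fixed whatever their result. The members and lists were chosen with earlier results of these data known. Symbols came from the deposited table or, by gene number, from RefSeq. Coordinates are RefSeq GRCm38.p6 and exon lengths Gencode M21.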

Additional observations from a re-analysis of the deposited data

How the results depend on the processing

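With size factors of DESeq2 the 3 called genes and the directions of all 33 were kept. With a pseudocount of 0.1, Aurkb and Kif23 remained. With a minimum mean of 1 CPM, 5 of the 33 and 7 of the 108 other mitosis genes were lower, as were 981 of all 13419 genes in that fit. In edgeR these counts were 6 and 7, with 989 of 12961 genes lower and 2042 genes called in all. In DESeq2 they were 0 and 1, with 1 of the 108 higher. There 319 of 13523 genes were lower and 704 genes were called in all. Without 1 library, in limma or edgeR, between 0 and 5 of the 33 and between 0 and 9 of the 108 were lower, 0 to 3 of the 108 were higher, and 0 to 1767 of all genes were called. The log2 fold change of Arid1a ran from -1.26 to -1.08 and lost its call in limma without either 4-OHT library. Genes near 0 changed sign without 1 library: Mki67 (-0.14 to 0.041), Cenpa (-0.13 to 0.039), Tpx2 (-0.11 to 0.056), Cdc25c (-0.066 to 0.031), Cdc25b (-0.098 to 0.096), Ccna2 (-0.044 to 0.059), Cdca8 (-0.020 to 0.043), Bub1b (-0.046 to 0.072), Top2a (-0.030 to 0.069) and Prc1 (-0.0042 to 0.077). The cause was not tested. The other 23 kept their direction in every setting. No paired analysis was possible because the deposited columns are group means and carry no replicate numbers. With 1 library left in a group, that library is assumed to vary like the other group.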

Other observations

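Of the 28 genes with a promoter window, 23 held a CHR match and 5 did not. The 5 without a match were Birc5, Ccnb1, Cenpe, Mad2l1 and Nusap1, and their log2 fold changes with 4-OHT ran from -0.19 to -0.10, with a median of -0.16. The 23 with a match ran from -0.26 to 0.15, with a median of -0.05, and 17 of them were below 0. The split was looked at after the fold changes were known and was not tested, and no match says only that these letters are not in the window of 300 bases. Ube2c and Hmmr held 6 and 5 CCAAT matches, and Top2a, which did not separate the groups, held 6.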
